A study of Mus musculus with 14 samples.

Results

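The 10 genes described here are Camp, Ltf, Ngp, Lcn2, S100a8, S100a9, Mmp8, Mmp9, Chil3 and Cd177, a named list of genes that neutrophils use late in maturation, taken by symbol from a table of 52550 mouse genes. All 10 were found and all passed the filter on low counts in every comparison. The libraries were total RNA depleted of ribosomal RNA. There were 4 from marrow cells of WT C57BL/6 mice enriched for hematopoietic stem and progenitor cells by depletion of lineage-marked cells (WT HSPC) and 4 from HSPCs of C57BL/6 mice lacking the microRNA gene Mir139 (Mir139KO HSPC). There were 6 from WT HSPCs that were transduced with the MLL-AF9 fusion in a retroviral pMSCV vector, selected, and replated in semisolid medium. By the methods of the study, MLL-AF9 cells were then grown in medium with serum and cytokines. These included granulocyte-macrophage colony-stimulating factor and stem cell factor. Of these MLL-AF9 cultures, replicates 1 to 3 carried neomycin resistance (neo) and replicates 4 to 6 puromycin resistance (puro). The mice were 8 to 20 weeks old, from femurs and tibiae. The labels do not say for each sample whether the HSPCs were lysed at once or kept in culture, so MLL-AF9 and culture cannot be told apart. The retroviral promoter drives the fusion in whichever cells took up the vector, and whether the cultures were separate transductions is not stated. P-values therefore measure the spread between these samples, part of which may be technical.

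Neutrophils pack their granules in the order in which the proteins are made. The promyelocyte makes the primary (azurophil) granules with myeloperoxidase and serine proteases. The myelocyte and metamyelocyte then make the secondary (specific) granules, and band cells the tertiary (gelatinase) granules, under control of the transcription factor C/EBP epsilon. The secondary and tertiary granule genes are therefore used as marks of how far granulocytic cells have matured. Camp encodes the precursor of the antimicrobial peptide cathelicidin, Ltf the iron-binding protein lactoferrin, Ngp a cystatin-related granule protein, and Lcn2 the lipocalin that captures bacterial siderophores. S100a8 and S100a9 encode the subunits of calprotectin, which lies mainly in the cytosol. Mmp8 encodes neutrophil collagenase, Mmp9 gelatinase B of the tertiary granules, Chil3 a chitinase-like lectin, and Cd177 a surface protein that is also held in the membrane of secondary granules.

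Of the 10 genes, 4 lie on chromosome 9 of build GRCm38. Camp is at chr9:109847379-109849617 on the minus strand, Ngp at chr9:110419747-110423012 on the plus strand and Ltf at chr9:111019271-111042767 on the plus strand, with 570.1 kb between Camp and Ngp and 596.3 kb between Ngp and Ltf. Mmp8 is far from them at chr9:7558456-7568485, plus strand. S100a8 at chr3:90668978-90670035 and S100a9 at chr3:90692632-90695721 are neighbours, 22.6 kb apart with 0 annotated genes between them, and Chil3 is on the same chromosome at chr3:106147554-106167564. Lcn2 at chr2:32384633-32388252, Mmp9 at chr2:164940780-164955850 and Cd177 at chr7:24743983-24760311 complete the list. None of the 10 overlaps another annotated gene.

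The promoters of the 4 genes on chromosome 9 are shown because Camp, Ltf and Ngp varied together over the HSPC libraries and kept other count ratios in the MLL-AF9 cultures, while Mmp8 varied apart from them in HSPCs. Neither trait was particular to chromosome 9. Over the HSPC libraries Camp correlated with Ltf at r = 0.994, and with Lcn2 and Cd177, on other chromosomes, at 0.996 each. Chil3, also on another chromosome, varied apart as well (r = 0.177 with Camp, against 0.552 for Mmp8). Each sequence is the 250 bases before the RefSeq transcription start on build GRCm38.p6, read 5′ to 3′ along the gene: Camp from chr9:109849457-109849706 on the minus strand, Ltf from chr9:111019042-111019291, Ngp from chr9:110419558-110419807 and Mmp8 from chr9:7558179-7558428 on the plus strand. By the gene bounds given above, the Camp, Ltf and Ngp windows reach into the annotated gene, because the annotations place the starts differently. For Camp, annotated up to 109849617, most of the 250 bases lie inside the gene, and for Ngp the last marked match does. Capitals mark matches on either strand to TTNNGNAA, a loose form of the site that C/EBP factors bind.
Camp: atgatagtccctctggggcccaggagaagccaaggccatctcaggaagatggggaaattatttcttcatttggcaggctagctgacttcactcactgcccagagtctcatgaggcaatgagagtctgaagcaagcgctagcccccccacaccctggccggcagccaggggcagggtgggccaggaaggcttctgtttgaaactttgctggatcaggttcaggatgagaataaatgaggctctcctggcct
Ltf: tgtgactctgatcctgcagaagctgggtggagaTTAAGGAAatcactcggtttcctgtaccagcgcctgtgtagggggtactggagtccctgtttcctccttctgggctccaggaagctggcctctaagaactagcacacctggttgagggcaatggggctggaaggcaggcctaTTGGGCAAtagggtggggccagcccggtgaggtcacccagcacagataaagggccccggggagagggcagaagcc
Ngp: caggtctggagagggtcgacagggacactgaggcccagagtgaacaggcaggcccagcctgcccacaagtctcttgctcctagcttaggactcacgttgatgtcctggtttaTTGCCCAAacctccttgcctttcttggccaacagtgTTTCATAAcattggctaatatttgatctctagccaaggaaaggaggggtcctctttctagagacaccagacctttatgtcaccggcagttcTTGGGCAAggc
Mmp8: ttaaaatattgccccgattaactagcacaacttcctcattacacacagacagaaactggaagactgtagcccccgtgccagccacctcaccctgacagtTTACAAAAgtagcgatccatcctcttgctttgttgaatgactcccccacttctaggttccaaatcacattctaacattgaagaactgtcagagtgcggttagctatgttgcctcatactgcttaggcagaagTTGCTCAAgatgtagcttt

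RefSeq promoters, which run from 250 bases before to 50 after the start, were present for 9 of the 10 genes. The gene without one was Mmp9. TTNNGNAA matched in 8 of the 9, all but Camp, against 40.7% of all 32851 promoters. The narrower TTNNGCAA, each match of which is also a match to TTNNGNAA, was in 5 of the 9 (Lcn2, S100a9, Mmp8, Ngp and Ltf) against 10.8% of all. TATAAA was in 5 of the 9 (S100a8, S100a9, Chil3, Cd177 and Mmp8) against 13.6% of all. Counted from the RefSeq start, these matches began at base -30 in S100a8 and -40 in Cd177. They began at the start itself in the others, at -3 in Chil3, -3 in Mmp8 (other strand) and 1 in S100a9. GAGGAA, the core that the factor PU.1 binds, was in 5 (Lcn2, S100a8, Cd177, Mmp8 and Ltf) against 28.3%. Of 6 further patterns searched on both strands, TTGCGCAA and TTTAAA were in 0 of the 9, a pattern for NF-kappaB was in 1, GAGGAAG (within GAGGAA) in 3, CCAAT in 4 and the very loose TTNNNNAA in 8, against 0.183%, 13.2%, 5.78%, 13.6%, 37.4% and 61.5% of all promoters. These are matches of letters in a short window. For Camp, Ltf, Ngp, Lcn2 and S100a8 part or all of the bases before the RefSeq start lie inside the annotated gene.

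Total counts were 35016668 to 45877994 per library, and 3 counts corresponded to 0.0654 to 0.0857 counts scaled to library size (CPM). A single noncoding RNA gene, Gm26917, took 17.0 to 35.4% of the counts in HSPC libraries against 7.6 to 10.4% in MLL-AF9 libraries. WT replicates 1 and 2 and Mir139KO replicates 2 and 3 were below 25% and the other HSPC libraries above it. Mir139 itself had 0 counts in every library, Mir139KO or not, and so could not serve as a check of the labels. It lies inside Pde2a, and of the 1213 protein-coding genes that lie inside another gene 98.8% had 0 counts in all libraries, against 13.2% of the others. Genes such as Cyba, which lies inside another annotated gene and is listed at 0, can therefore not be read from these counts. The list of 6 HSPC markers was detected in full in every group. The HSPC libraries also held erythroid markers (summed CPM 1269 to 1971), B cell markers (1603 to 6092) and markers of eosinophils, basophils and mast cells (513 to 882), against at most 16.3, 29.9 and 29.8 in MLL-AF9 libraries. In bulk RNA, fewer cells of a type and less RNA per cell cannot be told apart.

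The granule genes were abundant in HSPC preparations and varied widely among them. Together the 10 took 1.12%, 0.0646%, 0.192% and 0.376% of the counts in WT replicates 1 to 4, and 0.818%, 0.711%, 0.677% and 0.307% in Mir139KO replicates 1 to 4. In the MLL-AF9 cultures they took 0.619%, 0.426% and 0.243% in neo replicates 1 to 3 and 0.299%, 0.0372% and 0.298% in puro replicates 4 to 6. The lowest HSPC library was WT replicate 2 and the lowest culture was puro replicate 5, and the ranges of HSPCs and cultures overlapped.

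Levels of different genes were set against each other per kilobase of annotated exon (RPKM, computed from the scaled CPM). In the 8 HSPC libraries S100a9 had the highest mean, 1892 ± 1389 RPKM (SD, n = 8), followed by Ngp at 1364 ± 891 and S100a8 at 1096 ± 784. The order of these 3 was not fixed, since each was above the next in 4 of 8 libraries. Camp came next at 705 ± 551 RPKM and was above Ltf, at 336 ± 218, in 8 of 8 libraries. Lcn2 (195 ± 131), Chil3 (136 ± 91.8), Cd177 (93.3 ± 62.5), Mmp9 (76.9 ± 51.6) and Mmp8 (25.5 ± 22.0) followed. In the MLL-AF9 cultures S100a9 (1013 ± 577 RPKM, SD, n = 6), Ngp (734 ± 527) and S100a8 (583 ± 400.0) again had the highest means. Camp, at 81.8 ± 86.3 RPKM, was below S100a8 in 6 of 6 cultures and above Lcn2, at 61.2 ± 30.6, in 3 of 6. Ltf stood below Cd177 at 25.8 ± 26.0 RPKM and Mmp9 last at 10.1 ± 10.3, and Chil3 had 60.3 ± 68.1, Cd177 29.8 ± 24.9 and Mmp8 21.4 ± 24.3. Whether reads in introns were counted is not stated, and the values per kilobase assume that they were not. The order of genes per kilobase rests on that assumption. Counting over whole gene spans was not tested, also not for the 98.8% of genes inside another gene that had 0 counts.

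**Figure D1:**
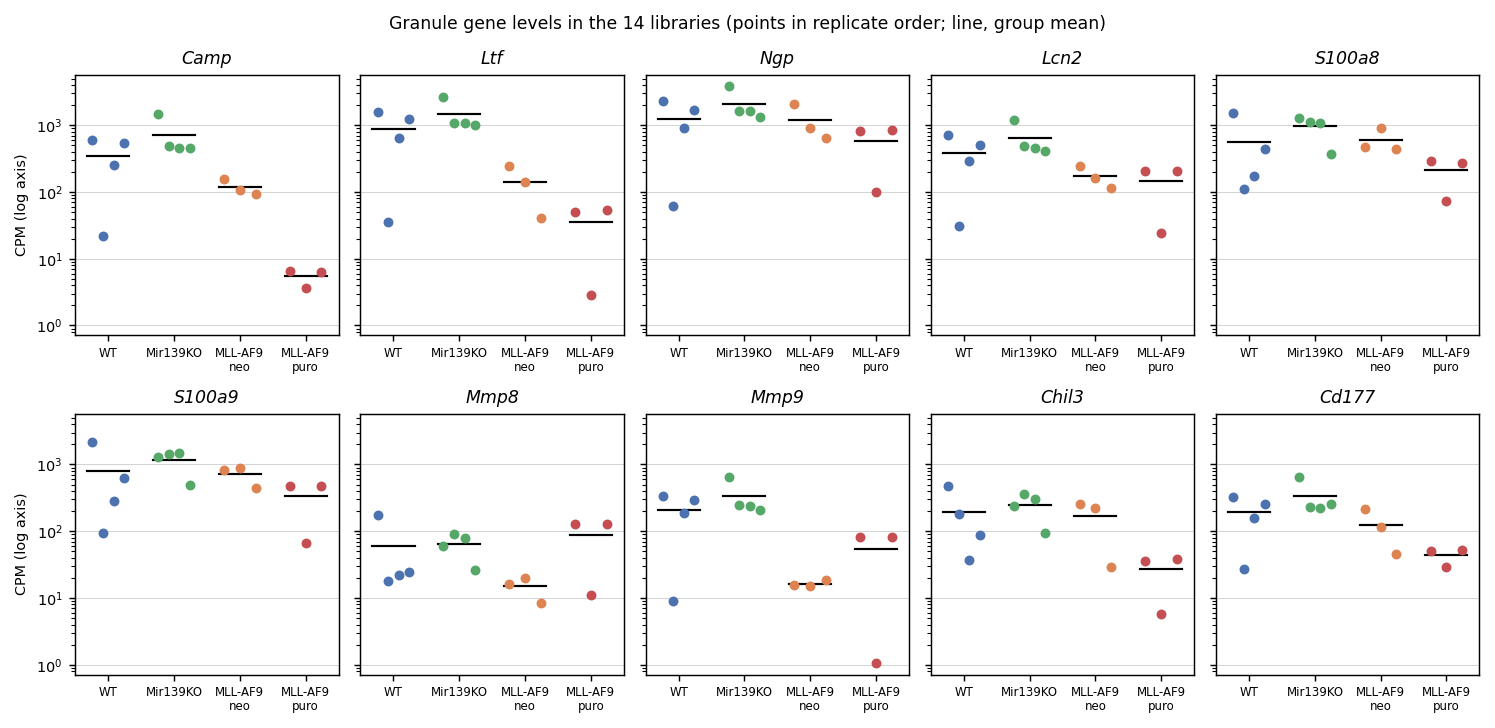
Level of each of the 10 granule genes in the 14 libraries, as TMM-scaled CPM on a log axis; each point is 1 library in replicate order and the line is the group mean. WT HSPC replicate 2 is the lowest HSPC library for 9 of the 10 genes, Camp is below 7 CPM in all 3 puro cultures, and Mmp8 and Mmp9 are higher in 2 of the 3 puro cultures than in any neo culture.

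The comparison of MLL-AF9 cultures with WT HSPCs sets the transformed cells, after selection and culture, beside a mixed marrow preparation of the kind they came from. It cannot tell the fusion from the culture. Ltf, the lactoferrin gene, and Mmp9, the gelatinase gene, were lower in MLL-AF9 cultures, and the other 8 granule genes did not pass the test, although all 10 log2 fold changes were below 0, with Ngp and Mmp8 above 0 (0.16 and 0.23) where total counts replaced the TMM library sizes. Of 17077 genes, 62.2% were called, which divides into 32.8% higher and 29.4% lower in the cultures. The 2 of 10 granule genes called lower were therefore no larger a share than in the background. Their median log2 fold change was -1.09, beside 0.14 over all genes tested. At an unadjusted p under 0.05 there were 3 of the 10 (Camp in addition), against 66.1% of all genes. Total counts moved the median of all genes up by 0.55 here and by 0.69 against Mir139KO HSPCs, and fold changes are to be read relative to that median.

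Ltf had 1550.1, 34.9, 653 and 1218 CPM in WT HSPC replicates 1 to 4. In the cultures it had 246, 143 and 40.2 CPM in neo replicates 1 to 3 and 49.96, 2.89 and 53.3 CPM in puro replicates 4 to 6. All cultures were below 3 of the 4 WT libraries, and WT replicate 2 lay within the range of the cultures. Its log2 fold change was -3.28 (SE 0.99), with an adjusted p of 0.0122 in edgeR's quasi-likelihood test. Mmp9 had 337, 8.87, 185 and 289 CPM in WT HSPCs. It had 15.5, 15.1 and 18.7 CPM in the neo cultures and 83.2, 1.08 and 80.8 CPM in the puro cultures, so that again only WT replicate 2 overlapped the cultures. Its log2 fold change was -2.53 (SE 0.98, adjusted p = 0.0389, edgeR).

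Camp, the cathelicidin gene, had 596, 21.9, 253 and 535 CPM in WT HSPCs, 156, 108 and 91.7 CPM in neo cultures and 6.64, 3.62 and 6.33 CPM in puro cultures. Its log2 fold change of -2.51 (SE 1.05) did not pass the threshold (adjusted p = 0.0535, edgeR). The division between Camp and Mmp9 was not firm. Over the 27 alternatives of the processing Ltf was called in 23, Mmp9 in 14 and Camp in 7. Camp was called with RLE factors, DESeq2 and limma-voom, and Mmp9 was not called with limma-voom. Ngp, which lies between Camp and Ltf on the chromosome, had 2304, 61.3, 892 and 1703 CPM in WT HSPCs. In the cultures it had 2063, 919.8 and 638 CPM with neo and 815, 100.0 and 849 CPM with puro. The Ngp levels of the cultures lay within the range of the WT libraries, and the log2 fold change was -0.47 (SE 0.79, 95% interval -2.02 to 1.08). The 3 genes kept close count ratios in HSPCs, where Ngp had 1.33 to 1.75 counts for each Ltf count, against 6.44 to 34.5 in the cultures, with no overlap. These ratios were chosen after the values were seen.

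Lcn2 had 706, 30.4, 296 and 507 CPM in WT HSPCs, 247, 163 and 115 CPM in neo cultures and 207, 24.6 and 206 CPM in puro cultures. Its log2 fold change was -1.27 (SE 0.69, adjusted p = 0.126, edgeR). Cd177 had 329, 27.2, 156 and 259 CPM in WT HSPCs, 216, 115 and 44.9 CPM in neo cultures and 50.02, 28.8 and 53.0 CPM in puro cultures. Its log2 fold change was -1.19 (SE 0.65, adjusted p = 0.127, edgeR). For Lcn2 only WT replicate 2 lay within the culture range, and for Cd177 only WT replicate 3 did, WT replicate 2 being below every culture. The calprotectin genes overlapped between the groups. S100a8 had 1508, 112, 174 and 438 CPM in WT HSPCs, 467, 893 and 435 CPM in neo cultures and 291, 72.2 and 269 CPM in puro cultures. S100a9 had 2206, 94.4, 281 and 631 CPM in WT HSPCs, 841, 885 and 437 CPM in neo cultures and 474, 65.8 and 470.2 CPM in puro cultures. Their log2 fold changes were -0.48 (SE 0.72) and -0.62 (SE 0.76), with 95% intervals of -1.89 to 0.93 and -2.11 to 0.88. Chil3 (log2 fold change -0.99, SE 0.91) and Mmp8 (-0.21, SE 0.91) were not called either, with adjusted p of 0.36 and 0.848 (edgeR).

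The number of granule genes called depended on single libraries. Without WT replicate 2 it was 5, with Camp (log2 fold change -2.94, adjusted p = 0.0254), Lcn2 (-1.69, 0.0176) and Cd177 (-1.60, 0.0278) joining Ltf and Mmp9. In that fit 5057 of all 17586 genes tested were called lower. The number was 3 (Ltf, Camp and Cd177) without MLL-AF9 replicate 1, when 4778 of 16653 genes were lower. It was 1 (Ltf) without any one of WT replicates 1, 3 and 4 or MLL-AF9 replicates 2 and 3. In those fits 4475 to 4965 of 16700 to 17650 genes were lower. Mmp9 was not called without any of these replicates. WT replicate 2 was also the lowest HSPC library for the 6 neutrophil markers outside the list, with a summed 47.6 CPM against 418 in WT replicate 1, and had 0.371 CPM of Ly6g, the surface antigen of neutrophils, against 8.82 to 24.7 CPM in the other WT libraries. The part of neutrophil content in these differences was not tested.

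The Mir139KO HSPC libraries were set against the same 6 cultures, so that these values share the MLL-AF9 samples with the preceding comparison. In this comparison 6 of the 10 granule genes were lower in MLL-AF9 cultures and 0 were higher, in a background of 16953 genes of which 69.3% were called, 31.9% as lower and 37.3% as higher. The 6 were Ltf (log2 fold change -4.04, SE 0.82, adjusted p = 8.43e-04), Camp (-3.55, SE 0.96, adjusted p = 0.00547), Mmp9 (-3.26, SE 0.83, adjusted p = 0.0039), Cd177 (-2.01, SE 0.54, adjusted p = 0.00501), Lcn2 (-2.004, SE 0.51, adjusted p = 0.00379) and S100a8 (-1.27, SE 0.53, adjusted p = 0.0474), all by edgeR. Ngp (-1.24), S100a9 (-1.16), Chil3 (-1.35) and Mmp8 (-0.31) did not pass, with adjusted p of 0.0712, 0.067, 0.152 and 0.731 (edgeR). The median over the 10 was -1.68, beside 0.16 over all genes tested, and all 10 were below 0 except Mmp8 (0.36) with total counts. At an unadjusted p under 0.05 there were 7 of the 10, S100a9 in addition, against 71.8% of all genes.

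The Mir139KO levels behind this did not reach as low as those of WT HSPCs for these genes. Ltf had 2659, 1064, 1088 and 1010.4 CPM in Mir139KO replicates 1 to 4, and Camp had 1463, 483, 463 and 458 CPM. Mmp9 had 656, 250.4, 239.9 and 211 CPM and Cd177 had 645, 229, 222 and 252 CPM. For these 4 genes replicate 1 stood above 3 libraries that were close to each other, and every Mir139KO library was above every culture. Lcn2 had 1216, 481, 449.5 and 408 CPM, also above every culture. These 5 genes were the granule genes whose groups did not overlap, where 28.6% of all genes tested were lower and 29.5% higher without overlap. S100a8 had 1262, 1131, 1087 and 372 CPM and overlapped the cultures through replicate 4. Against WT HSPCs 0 of the 10 genes lay below the WT libraries without overlap, where 24.9% of all genes were lower and 25.8% higher in this way. With either neo or puro cultures alone Ltf, Camp, Mmp9, Lcn2 and Cd177 were each called, whereas with only the 2 Mir139KO libraries below 25% Gm26917 the count of calls was 1 (Ltf). Over all genes, 5276 of 16655 were lower with neo, 5177 of 16484 with puro and 4525 of 18251 with those 2 libraries.

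**Figure D2:**
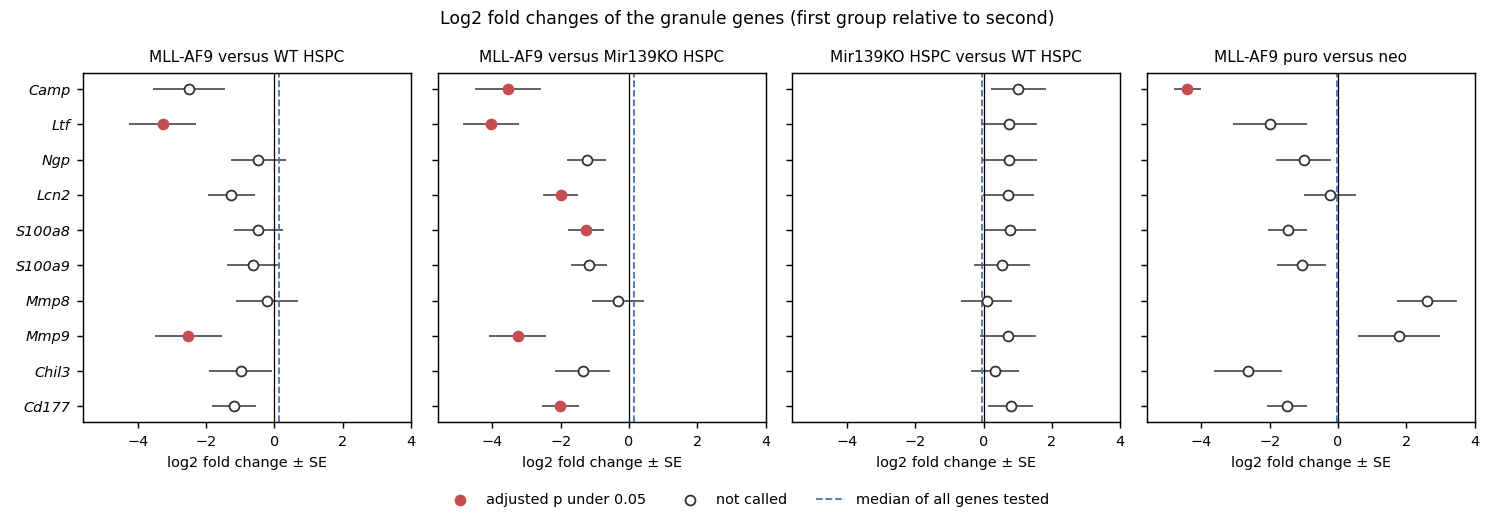
Log2 fold change of each granule gene (point) with its standard error (bar) in the 4 comparisons, first group relative to second; filled points have an adjusted p under 0.05 in edgeR and the dashed line is the median of all genes tested. With TMM library sizes all 10 genes are below 0 in both comparisons of MLL-AF9 with HSPCs and above 0 between the HSPC genotypes. With total counts Mmp8 changes sign in each of these comparisons, and Ngp only in MLL-AF9 against WT HSPCs. Camp is the only filled point between the vectors.

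The comparison of Mir139KO with WT HSPCs addresses what the loss of Mir139 does to progenitors. No difference in a granule gene passed the test. All 10 log2 fold changes were above 0, from 0.09 for Mmp8 (-0.13 with total counts) to 1.02 for Camp (SE 0.80), with a median of 0.73 beside -0.03 over all genes tested. Each adjusted p was 1.00 (edgeR), the lowest unadjusted p being 0.236 for Camp. The background was 0.0% called, 0 of 15056 genes by edgeR, with 86 genes (0.571%) at an unadjusted p under 0.05 and 0 called by DESeq2 or limma-voom. The 95% interval of the Camp difference, -0.56 to 2.59, shows the range of size that these 8 libraries left undetermined.

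The levels overlapped for all 10 genes, where 0.193% of all genes were higher and 0.319% lower in Mir139KO HSPCs without overlap. Ngp had 3812, 1614, 1605 and 1346 CPM in Mir139KO HSPCs, against the 61.3 to 2304 CPM in WT HSPCs. S100a9 had 1314, 1414, 1472 and 489 CPM, Mmp8 had 59.2, 91.5, 78.1 and 26.7 CPM and Chil3 had 243, 355, 302 and 95.2 CPM. In WT HSPCs Mmp8 had 174, 17.9, 22.0 and 24.7 CPM and Chil3 had 472, 183, 37.4 and 86.8 CPM. WT replicate 1 was the highest and, for 9 of the 10 genes, WT replicate 2 the lowest of the WT libraries, so that the WT group spanned most of the Mir139KO values. Without WT replicate 2 the median of the 10 log2 fold changes was 0.33, and without Mir139KO replicate 1 it was 0.29, with 0 genes called in either case.

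Within the HSPC libraries the 10 genes were divided into 2 blocs by the GC content of their transcripts, a division made with the values known. Pearson's r of log2 CPM over the 8 libraries was 0.983 to 0.999 (median 0.995) among Camp, Ltf, Ngp, Lcn2, Mmp9 and Cd177, and 0.611 to 0.981 (median 0.857) among S100a8, S100a9, Mmp8 and Chil3. Between the blocs it was 0.109 to 0.872 (median 0.678). These values are descriptions over 8 libraries that share preparation and depth, and WT replicate 2 sets much of the spread. Mir139KO replicate 1 was the highest HSPC library for all 6 genes of the first bloc and WT replicate 1 for all 4 of the second.

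By that division the transcripts of the first 6 genes had a GC content of 50.2 to 55.2% and those of the other 4 of 43.4 to 45.1%. Count ratios between the blocs went with the share of Gm26917. S100a8 had 2.34 to 5.10 counts for each Camp count in the 4 libraries below 25% Gm26917 and 0.686 to 0.863 in the 4 above, each group holding both genotypes. Mmp8 had 0.326 to 2.01 counts for each Mmp9 count in the former and 0.0853 to 0.127 in the latter. Lcn2, whose GC content of 54.4% is near the 54.2% of Camp, had 0.971 to 1.39 counts for each Camp count in the former and 0.831 to 1.17 in the latter, with overlap. Ngp, at 50.2%, had 2.79 to 3.86 and 2.61 to 3.53 counts for each Camp count, also with overlap. The split at 25% and these pairs of genes were chosen with the values known, and the part of library composition in the blocs was not tested.

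**Figure D3:**
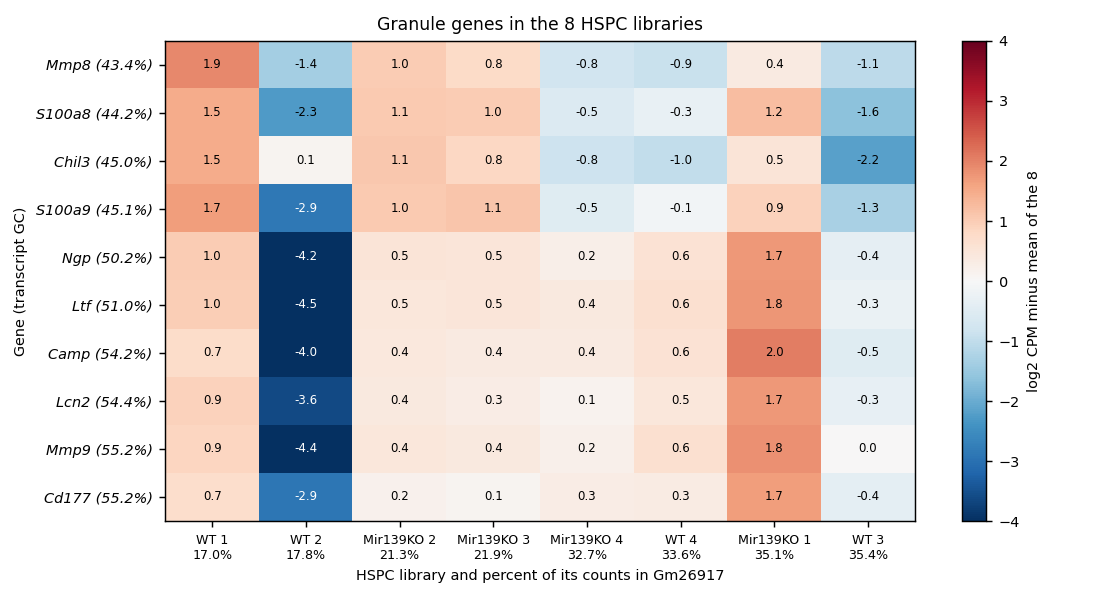
Log2 CPM of each granule gene minus its mean over the 8 HSPC libraries (colour and printed number), with libraries ordered by the percent of counts in Gm26917 and genes by transcript GC. The 4 genes with GC of 43.4 to 45.1% are higher in WT replicate 1 than in Mir139KO replicate 1, the 6 genes with GC of 50.2 to 55.2% are lower, and WT replicate 2 is low for all but Chil3.

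The comparison of puro with neo cultures shows how far cultures of the same fusion differed. Camp was lower in the puro cultures, with a log2 fold change of -4.41 (SE 0.39), a 21.3-fold difference, and an adjusted p of 0.014 in edgeR. Its 3 puro values of 6.64, 3.62 and 6.33 CPM lay far under the 3 neo values of 91.7 to 156 CPM. Of the 16503 genes tested, 0.873% were called, 0.564% higher and 0.309% lower with puro, and Camp was the 1 granule gene among them. The call rests on few cultures. It was lost when MLL-AF9 replicate 2, 3, 4 or 6 was left out or when replicates 4 and 6 were summed. In each of these fits 0 of the 10 genes and 0 to 5 of all genes were called. The log2 fold changes of Camp stayed between -4.57 and -4.13 over all alternatives. Replicates 4 and 6 were the most alike pair of libraries of a group, with log2 CPM that correlated across genes at r = 0.995, though their counts differed by more than counting error (chi-square per degree of freedom 11.8).

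The other granule genes did not pass the test between the vectors. S100a8 had no overlap between the vectors either, at 467, 893 and 435 CPM with neo against 291, 72.2 and 269 CPM with puro (log2 fold change -1.48, SE 0.58, adjusted p = 0.328, edgeR), where 8.67% of all genes were lower and 11.1% higher without overlap. Chil3 had 259, 222 and 29.2 CPM with neo and 36.2, 5.71 and 38.7 CPM with puro (-2.63, SE 0.99, adjusted p = 0.311, edgeR). Ltf (-1.99), Cd177 (-1.50), S100a9 (-1.07), Ngp (-1.01) and Lcn2 (-0.23) had negative differences with overlap. Their standard errors were 0.58 to 1.08. At an unadjusted p under 0.05 there were 5 of the 10 (Camp, Cd177, Chil3, Mmp8 and S100a8), against 13.7% of all genes.

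The 2 metalloproteinase genes had the opposite sign to Camp. Mmp8 had 16.5, 20.0 and 8.30 CPM with neo and 129, 11.04 and 126 CPM with puro (log2 fold change 2.61, SE 0.89, adjusted p = 0.264, edgeR). Mmp9, with the neo and puro values given above, differed by 1.77 on the log2 scale (SE 1.199, adjusted p = 0.587, edgeR). Puro replicates 4 and 6 were above every neo culture for these genes and puro replicate 5 was below 2 of the 3 neo cultures for Mmp8 and below all 3 for Mmp9. Without replicate 5 Mmp8 and Mmp9 were called higher and Camp lower, when 990 of all genes were called. The vector, the selection drug and the history of each culture cannot be told apart.

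Puro replicate 5 was the lowest culture for 9 of the 10 genes, all but Mmp8. The primary granule genes stood in another order. In replicates 1 to 6 Elane, the neutrophil elastase gene, had 157, 339, 495, 491, 1063 and 524 CPM, and Ctsg, which encodes cathepsin G, had 163, 268, 250.1, 502, 1097 and 573 CPM. Mpo, the myeloperoxidase gene, had 119, 488, 329.9, 151, 619 and 161 CPM. Replicate 5 was the highest culture for each and replicate 1, which was highest for 6 of the 10 late granule genes, was the lowest. The summed level of the 9 primary granule genes was 981 CPM in replicate 1 and 4106 CPM in replicate 5.

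**Figure D4:**
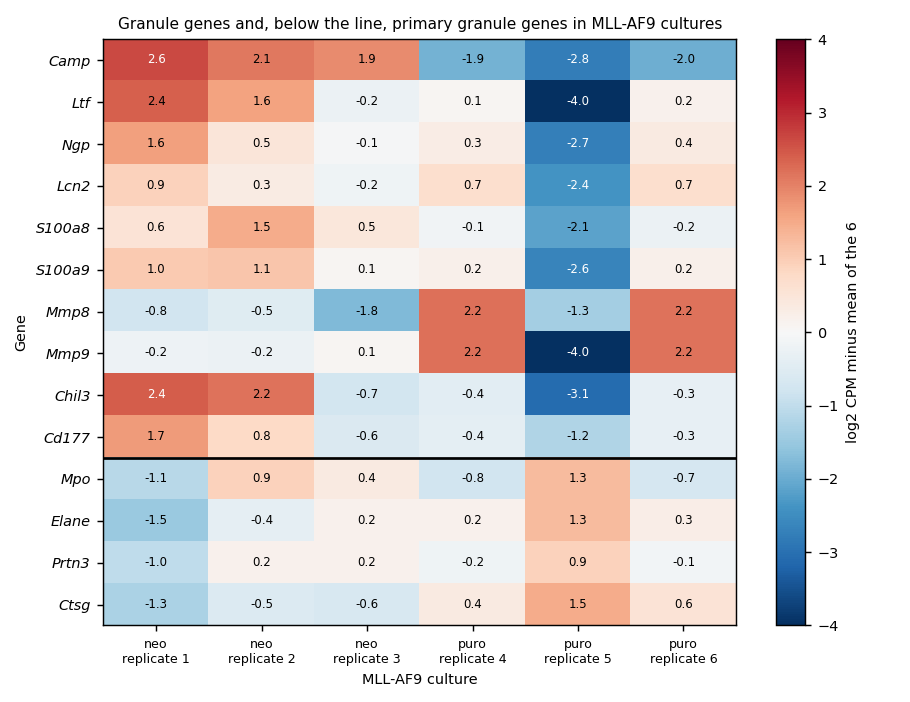
Log2 CPM of the 10 granule genes and, below the line, of 4 primary granule genes minus the mean over the 6 MLL-AF9 cultures (colour and printed number). Replicate 5 is lowest for 9 of the 10 granule genes and highest for all 4 primary granule genes, and replicates 4 and 6 are nearly alike.

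The pairs of granule genes that followed each other closely in HSPCs were not all the same in the cultures. The median pairwise r over the 6 cultures was 0.763, with a range of -0.517 (Camp and Mmp8) to 0.983, against a median of 0.834 over the 8 HSPC libraries. Among the 6 genes of higher GC the median was 0.732 in the cultures against 0.995 in HSPCs, among the other 4 it was 0.565 against 0.857, and between the blocs it was 0.776 against 0.678. Camp and Lcn2, at r = 0.996 in HSPCs, had r = 0.452 in the cultures. S100a8 and S100a9, whose products form a dimer, had 0.981 and 0.943, and S100a9 had 0.844 to 1.62 counts for each S100a8 count in HSPCs and 0.911 to 1.80 in the cultures. The counts of that pair thus stayed in a similar ratio in all 14 libraries, while Camp had 1 count to 0.831 to 1.39 Lcn2 counts in HSPCs, 1.26 to 1.58 in neo cultures and 6.79 to 32.6 in puro cultures. The 51 genes annotated between Camp and Ltf other than Ngp held 20 that could be tested between MLL-AF9 and WT HSPCs, of which 4 were higher and 7 lower, and 19 between the vectors, of which 0 were called.

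The other genes of the granule programme are given as counts called in each list, beside the 32.8% of all genes called higher and 29.4% called lower in this comparison, and nothing particular to a list is read from them. Of 14 tested granule and granule membrane genes outside the list, 1 was higher (Bpi) and 2 lower (Fcnb and Hp) in MLL-AF9 cultures than in WT HSPCs, and their median log2 fold change was -0.40. Fcnb, which encodes ficolin B, had 76.3 ± 43.3 CPM in WT HSPCs (SD, n = 4) and 3.45 ± 2.96 CPM in the cultures (SD, n = 6), and its log2 fold change was -4.47 (SE 0.74, adjusted p = 3.33e-04, edgeR). Olfm4, the olfactomedin of a subset of neutrophils, had 308, 181 and 474 CPM in neo cultures and 0.181, 18.6 and 0.245 CPM in puro cultures, and its difference from WT HSPCs did not pass (4.30, SE 1.93, adjusted p = 0.0687, edgeR). Between the vectors Fcnb and Mmp25, a membrane-bound metalloproteinase, were lower with puro and Slpi, a protease inhibitor, was higher. There 0.309% of all genes were called lower and 0.564% higher.

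Of the 9 primary granule genes, Mpo, Elane, Prtn3 and Prss57 were lower and Srgn, the proteoglycan core of granules, was higher in MLL-AF9 cultures than in WT HSPCs, with a median of -0.99. Mpo had a log2 difference of -4.05 (SE 0.54, adjusted p = 8.47e-05, edgeR), from 5075 ± 2681 CPM to 311 ± 206 CPM. Among the 7 regulators, Gfi1, a repressor needed for neutrophil maturation, was higher (36.8 ± 5.86 to 161 ± 57.3 CPM, log2 fold change 2.12, SE 0.31, adjusted p = 1.51e-04, edgeR). Cebpa (-1.42) and Csf3r, the receptor for granulocyte colony-stimulating factor (-1.57), were lower, at adjusted p of 0.017 and 0.00661 (edgeR). Cebpe, the factor named above for secondary granule genes, had 42.1 ± 18.1 CPM in WT HSPCs and 53.4 ± 17.1 CPM in the cultures (0.34, SE 0.37, adjusted p = 0.434, edgeR).

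Of 15 tested late neutrophil genes, Clec4e and Clec4d, which encode C-type lectin receptors, were higher and Retnlg, a resistin-like protein of neutrophils, was lower. Retnlg had 215, 6.93, 55.3 and 87.1 CPM in WT HSPCs and at most 0.0985 CPM in a culture, near the level of 3 counts. Ly6g was present in the cultures at 3.35 to 31.6 CPM. Of the 6 tested inhibitors, receptors and partners, Tlr4, a receptor for calprotectin, rose from 3.10 ± 2.69 to 131 ± 18.7 CPM (log2 fold change 5.37, SE 0.66, adjusted p = 4.65e-05, edgeR), and Ager, another, rose by 2.11 on the log2 scale (SE 0.49, adjusted p = 0.00275, edgeR). Pecam1, a binding partner of CD177, was higher with puro than with neo (2.39, SE 0.30, adjusted p = 0.0284, edgeR). Of the 8 tested paralogs and neighbours, S100a6, S100a10 and Mmp2 were lower and Mmp12 was higher in MLL-AF9 cultures. Chil4, the near-identical copy of Chil3 with which it could share reads, had at most 4 counts in any library.

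Against Mir139KO HSPCs, with the same cultures, 37.3% of all genes were called higher and 31.9% lower. Of the 14 tested other granule genes, 2 were higher (Olfm4 and Bpi) and 6 lower (Mmp25, Anxa1, Fcnb, Pglyrp1, Hp and Orm1). Of the 9 primary granule genes 1 was higher and 5 lower, and of the 7 regulators 1 was higher (Gfi1) and 3 lower (Csf3r, Cebpa and Cebpd). Of the 15 tested late neutrophil genes 2 were higher and 6 lower. Against WT HSPCs 32.8% of all genes were called higher and 29.4% lower. Of the marker lists in that comparison, all tested erythroid (6), B cell (4), T and NK cell (5) and eosinophil, basophil and mast cell (5) genes were lower in the cultures. Of the 8 monocyte and macrophage markers 1 was higher (Adgre1) and 5 lower, of the 6 HSPC markers 1 was higher (Meis1) and 4 lower, and of the 6 neutrophil markers outside the 10 only Retnlg was called, lower. Between the vectors, the primary granule gene Cst7 and the monocyte genes Ly86 and Ccr2 were higher with puro, where 0.564% of all genes were called higher.

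In Mir139KO against WT HSPCs 0 genes of any of these lists were called, and the median log2 fold change was 0.47 for the other granule genes, 0.43 for the late neutrophil genes, 0.24 for the regulators and 0.15 for the primary granule genes. The marker lists had medians of 0.44 for neutrophils, -0.02 for HSPCs, -0.06 for monocytes and macrophages, 0.03 for erythroid cells, 0.17 for B cells, -0.42 for T and NK cells and -0.09 for eosinophils, basophils and mast cells. The neutrophil markers outside the 10 summed to 47.6 to 418 CPM in WT HSPCs, 147 to 381 CPM in Mir139KO HSPCs and 36.3 to 156 CPM in the cultures. The osteoclast list had 1 gene of 4 detected and summed to at most 4.70 CPM, and monocyte and macrophage markers summed to 418 to 745 CPM in HSPCs and 56.2 to 532 CPM in the cultures. Whether these cell types contribute to the granule gene levels was not tested.

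By the rule for the most alike genes, the mean log2 CPM of the 10 genes was correlated with 8499 other genes over the 8 HSPC libraries. The 5 with the highest r were Wfdc21 (0.992), Retnlg (0.992), Pilra (0.988), Ifitm6 (0.987) and Olfml2b (0.987), and each was lowest in WT replicate 2. Wfdc21 went from 3.22 to 58.3 CPM and Retnlg from 6.93 to 215 CPM. Over the 6 MLL-AF9 cultures, among 8705 genes, the 5 were Cped1 (0.996), Ffar2 (0.995), Mctp2 (0.993), Ptpn21 (0.990) and Myh9 (0.987), each lowest in replicate 5 and highest in replicate 1. Cped1 went from 4.46 to 72.8 CPM and Myh9, a nonmuscle myosin, from 886 to 1789 CPM. These r are descriptions over 8 and 6 libraries, chosen as the highest of many.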

How the data were processed

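Total RNA, depleted of ribosomal RNA, was sequenced from 14 samples. Per the labels and the methods of the study, the authors mapped reads to GRCm38 with STAR 2.5.3e and deposited raw counts per gene from featureCounts 1.6.0. Strand setting and the treatment of reads on several genes are not given in the sources used here. The 14 columns were equal in both deposited tables (735700 cells), and 10 columns of another series were not used.

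Coordinates, exon lengths and GC content were taken from GENCODE M21 on GRCm38, which placed 52403 of 52550 genes. Groups came from sample titles and descriptions. Each comparison used its own groups in edgeR 4.0.16 (limma 3.58.1, R 4.3.3) with TMM factors, robust quasi-likelihood F tests, a minimum of 10 counts in a number of samples equal to the smaller group, and Benjamini-Hochberg adjustment over all genes tested. Genes with adjusted p under 0.05 were called. The SE is the log2 fold change over the square root of F, and 95% intervals are normal approximations from it. CPM were scaled over all 14 samples by TMM. Log2 CPM used a prior count of 2. Dixon's ratio was taken on log2 CPM. The steps were tested on simulated data.

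Alternatives were RLE factors, total counts, DESeq2 1.42.0, limma-voom, other filters, all samples in a single fit, a fold change minimum (log2) of 1, blocking on replicate number (replicate block), a GC correction (spline with 5 degrees of freedom), Gm26917 left out, HSPC libraries split at 25% Gm26917, each vector alone, MLL-AF9 replicates 4 and 6 summed, and each replicate left out. Named genes were the 10 granule genes, the gene lists and, in HSPCs and in cultures, the 5 genes with the highest r with the mean log2 CPM of the 10, among those whose mean log2 CPM reached 3. The members and lists were chosen with earlier results of these data known. Depth gives a floor of 3 counts, which covers counting error only.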

Additional observations from a re-analysis of the deposited data

Results flagged for a closer look

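Within groups, Dixon's ratio (the gap between an extreme library and its neighbour over the whole range) was taken for each of the 10 genes in WT HSPCs, Mir139KO HSPCs and MLL-AF9 cultures, 30 tests, of which 11 passed the critical value, where about 1 group in 20 does so by chance. Mir139KO HSPC replicate 1 was far above the other 3 for Camp (log2 CPM 10.51), Ltf (11.38), Lcn2 (10.25), Mmp9 (9.36) and Cd177 (9.33). Mir139KO HSPC replicate 4 was far below the others for S100a8 (8.54) and S100a9 (8.93). WT HSPC replicate 1 stood above the others for Mmp8 (7.44) and WT HSPC replicate 2 below them for Mmp9 (3.16). MLL-AF9 replicate 5 was below the other cultures for Lcn2 (4.62) and S100a9 (6.04). Genes that correlate so closely are not independent, so these flags come from few libraries. Dixon's ratio was not taken over all genes, so the 11 flags are not read as particular to the granule genes.

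The change of Camp from WT HSPCs differed between cultures of the vectors, by the edgeR test of puro against neo itself (log2 fold change -4.41, adjusted p = 0.014, all 3 puro below all 3 neo cultures).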

How the results depend on the processing

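Granule genes called in MLL-AF9 against WT HSPCs, 2 in the report, were 1 with total counts as the library size, without a filter, with the GC correction and with neo cultures only, 4 with all 14 samples in a single fit and with puro cultures only, 0 with HSPC libraries under 25% Gm26917, and 1 to 5 without single replicates. Over all genes, 5027 of 17077 were lower in the report, 3129 of 17077 with total counts and 5660 of 28429 without a filter. They were 4641 of 17077 with the GC correction, 4446 of 16856 with neo and 4421 of 16673 with puro. With all samples they were 5892 of 17994, under 25% Gm26917 3821 of 18331, and without single replicates 4475 to 5057. Granule genes called against Mir139KO HSPCs, 6 in the report, were 3 with total counts, 1 with HSPC libraries under 25% Gm26917 and 5 to 8 without single replicates. Over all genes, 5416 of 16953 were lower in the report and 3212 of 16953 with total counts. They were 4525 of 18251 under 25% Gm26917 and 5153 to 5359 without single replicates. Between Mir139KO and WT HSPCs 0 granule genes were called under every alternative, and over all genes 1 was called in HSPC libraries under and 1 in those over 25% Gm26917. Between puro and neo, granule genes called were 1 in the report, 3 with DESeq2, 0 with replicates 4 and 6 summed and 0 to 3 without single replicates. Over all genes, 144 in the report, the calls were 1326 with DESeq2, 221 without a filter, 761 with all samples, 5 with replicates 4 and 6 summed and 0 to 990 without single replicates. Total counts moved the median of all genes by 0.55 in MLL-AF9 against WT HSPCs and 0.69 against Mir139KO HSPCs, and the share of calls that were higher from 52.7 to 68.3% and from 53.9 to 71.4%. The causes were not tested beyond the construction of each alternative.

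The samples were treated as unpaired, and a check of the replicate numbers gave mixed values. A sample was most alike its own number for number 2 of MLL-AF9 and WT HSPCs and number 2 of Mir139KO and WT HSPCs. The same held for numbers 1 and 3 of MLL-AF9 and Mir139KO HSPCs and numbers 1 and 2 of puro and neo, and not for the other numbers. These values cannot show whether the numbers pair samples. The deviations of same-numbered samples correlated at -0.051 to 0.093 for MLL-AF9 and WT HSPCs, -0.566 to 0.626 for Mir139KO and WT HSPCs, 0.02 to 0.186 for MLL-AF9 and Mir139KO HSPCs, and -0.312 to 0.441 for puro and neo, numbered within each vector. With the replicate block 1 granule gene was called in MLL-AF9 against WT HSPCs (Mmp9, not Ltf), 7 against Mir139KO HSPCs, 0 between Mir139KO and WT HSPCs and 1 between the vectors. Over all genes, 4242 of 17077 were lower against WT and 5394 of 16953 against Mir139KO HSPCs. With the block and the GC correction together the counts of granule genes were 1 (Chil3), 9, 0 and 1, with 270 genes called in all between the vectors. Over all genes, 4151 of 17077 were then lower against WT and 4800 of 16953 against Mir139KO HSPCs.

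No called granule gene changed sign. Signs changed for uncalled ones. In MLL-AF9 against WT HSPCs, Ngp had 0.158 with total counts, 0.284 with the block, 0.519 with block and GC correction and 0.02 without WT replicate 1. Lcn2 had 0.033 with block and GC correction. S100a8 had 0.472 with the block, 0.737 without WT replicate 1, 0.304 with HSPC libraries over 25% Gm26917 and 0.105 with neo cultures, and S100a9 had 0.404, 0.651 and 0.121 under the first 3. Mmp8 had 0.233 with total counts, 1.267 without WT replicate 1, 0.022 and 0.004 without MLL-AF9 replicates 3 and 5, 1.079 with libraries over 25% and 0.592 with puro cultures. Chil3 had 0.564 with libraries over 25%. Between Mir139KO and WT HSPCs, Mmp8 had -0.13 with total counts, -0.217, -0.18 and -0.164 without WT replicates 2, 3 and 4, -0.133 and -0.022 without Mir139KO replicates 2 and 3, and -0.177 with libraries under 25%. Against Mir139KO HSPCs Mmp8 had 0.363 with total counts, 0.243 with libraries over 25% and 0.505 with puro cultures. Between the vectors Lcn2 had 0.125 and 0.272 without MLL-AF9 replicates 1 and 5. At the other end, the lowest values without single replicates were -0.907 for Ngp and -1.019 for S100a9 (WT replicate 2), -0.865 for S100a8 (MLL-AF9 replicate 2) and -0.704 for Mmp8 (MLL-AF9 replicate 4) against WT HSPCs, and -0.57 for Lcn2 between the vectors (replicate 6), and the highest for Mmp8 between Mir139KO and WT HSPCs was 1.537 (WT replicate 1). Of the 10 genes, 10 had a lower mean CPM in MLL-AF9 cultures than in WT HSPCs, and 8 with total counts.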
